A study of Mus musculus with 4 samples.

Results

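The genes described here are 7 protein-coding genes with neuronal or glial roles, taken from 54532 gene identifiers counted in 4 libraries of C3H10T1/2, a mouse mesenchymal cell line that is no nervous tissue. They are Penk, Ptprz1, Gria3, Stmn2, Tagln3, Fxyd6 and Ppfia4. They were chosen by their read counts in these same libraries, which were far higher or far lower in some than in others. Their differences are therefore given as a description, without a test. All 7 passed the filter on low counts, each through at least 1 library with 100 reads or more, so that passing it says nothing further about them.

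Each of the 7 is known mainly from neurons or glia. Penk encodes the precursor that is cut into the enkephalins, peptides that act on opioid receptors. Ptprz1 is a receptor tyrosine phosphatase of glia and their precursors that binds the growth factors pleiotrophin and midkine, and Gria3 is a subunit of the AMPA receptors that carry fast excitatory transmission. Stmn2 binds tubulin and regulates microtubules in growing axons, and Tagln3 is the neuronal relative of the actin-binding transgelins. Fxyd6 is a small membrane protein that modulates the sodium pump, and Ppfia4 is a liprin, a scaffold of the presynaptic active zone.

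The unedited line gave 1 library (WT). Another came from cells whose Prdx1 gene was cut by CRISPR at the acceptor site of intron 5 (PRDX1MT; the genotype label names a Prdx1 knockout). The other 2 libraries are clones 1 and 5 of a double knockout (DKO) that targets Dnmt3a together with Dnmt3b, the enzymes of de novo DNA methylation. All came from the same line in the same serum-containing medium. Whether the Prdx1 edit is present in the DKO clones too, how the edited lines were derived and how many passages separate them from WT is not stated in the labels. WT and PRDX1MT had no replicates, and the 2 DKO libraries are separate clones, so their spread holds clone differences and any p-value measures only the spread between these samples. The libraries held 27570136 to 37685798 counts. Levels are CPM, counts per unit of library size after TMM scaling, and ranges in brackets are 95% intervals of the counting (exact Poisson for a level, conditional binomial for a ratio). They cover counting error only, because each is computed from the counts of single libraries and holds no variation between cultures. Reads copied by PCR and carrying no molecular tag do not each stand for a separate molecule, so the ranges may be too narrow even for counting error. Prdx1 stood at 31.2 CPM in the library labelled PRDX1MT and at 332 to 399 CPM in the others. Dnmt3a stood at 43.7, 80.9, 31.35 and 25.9 CPM in WT, PRDX1MT, clone 1 and clone 5 (714 to 2012 reads). Dnmt3b stood at 3.28, 3.74, 2.83 and 2.03 CPM in that order (56 to 135 reads). Both were lowest in the DKO clones, but a small edit need not alter such counts, and they do not check the DKO label.

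The cells carried mesenchymal transcripts throughout and few neural ones. All 12 mesenchymal markers had reads in each library, with a summed level of 33770 to 60240 CPM led by Col1a1, Fn1, Col1a2 and Vim. The surface marker Nt5e was scarce throughout (33, 19, 15 and 16 reads in WT, PRDX1MT, clone 1 and clone 5), and Thy1 was scarce outside WT, with 1192 reads in WT and 22 in PRDX1MT, 27 in clone 1 and 38 in clone 5 of DKO. The 20 neuronal markers summed to 103 CPM in WT, 215 in PRDX1MT, 77.6 in clone 1 and 186 in clone 5 of DKO, most of it from Map2, a microtubule protein. The neuronal tubulin Tubb3 had 188, 92, 51 and 208 reads in the same order, and the synaptic vesicle gene Syn1 had 77, 51, 35 and 63. The neuronal genes Nefl, Nefm, Elavl4 and Chga had 0 reads in all 4 libraries, and Rbfox3, Snap25 and Syt1 had at most 2 reads in any. The 16 glial markers summed to 253, 107, 313 and 80.2 CPM in the same order, nearly all from the glutamate transporter Slc1a3 and the calcium-binding protein S100b, while Aqp4, Olig1, Olig2 and Fabp7 had 0 reads everywhere. The part of these marker lists in the values of the 7 genes was not tested. The 12 epithelial, endothelial and blood markers summed to 9.89 to 21.6 CPM.

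**Figure D1:**
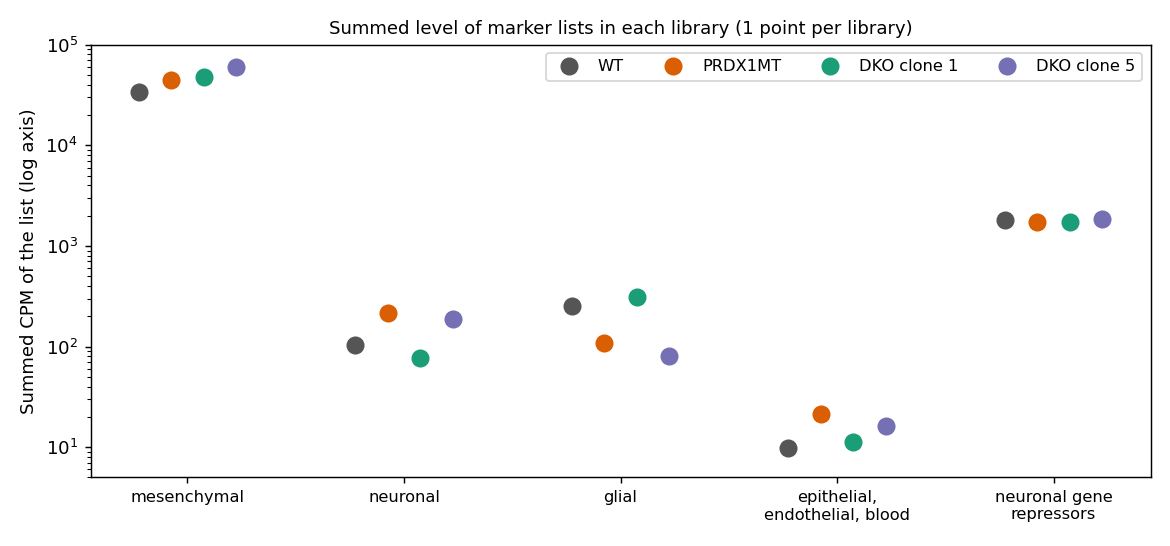
Summed CPM (log axis) of 5 gene lists, with 1 point per library in the order WT, PRDX1MT, DKO clone 1 and DKO clone 5. Mesenchymal markers lie between 33770 and 60240 CPM, and neuronal markers between 77.6 and 215 CPM.

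The 7 genes fell into those read mainly in WT (Penk, Ptprz1 and Gria3), those read mainly in PRDX1MT (Tagln3, Fxyd6 and Ppfia4), and Stmn2, which was read in WT and in both DKO clones but not in PRDX1MT. A size rule was used to set them beside the other genes: a log2 ratio of at least 1 in size (prior count 2), at least 100 reads in the 2 libraries together, and a counting interval of the ratio that excludes equality. In PRDX1MT against WT, 3 members were higher and 4 lower by this rule, where 7.26% and 7.57% of the 12693 genes with enough reads were higher and lower. In DKO clone 1 against WT, 0 members were higher and 3 lower (8.41% and 7.59% of all genes with enough reads). In DKO clone 5 against WT, 1 was higher and 3 lower (5.69% and 8.59% of all genes with enough reads). Tagln3, Fxyd6 and Ppfia4 had too few reads for the rule in either clone against WT, so they could not pass it in any direction. Because the members were chosen for these differences, nothing is read from their counts against those shares. In these bulk libraries, fewer cells that express a gene and less RNA per cell cannot be told apart.

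**Figure D2:**
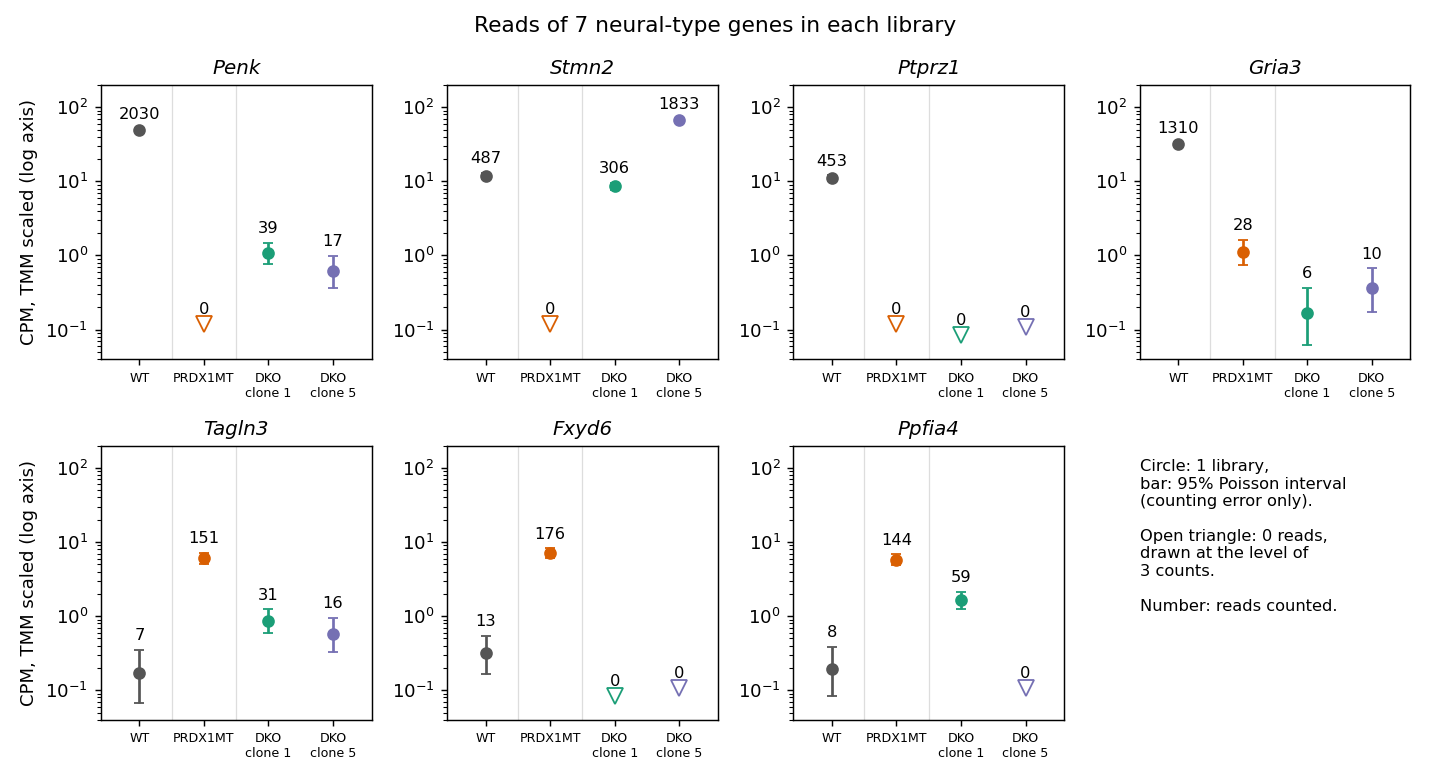
CPM (log axis) of each of the 7 genes in each library, with 95% Poisson intervals of the counting and the number of reads above each point; open triangles mark 0 reads and are drawn at the level of 3 counts. Penk, Ptprz1 and Gria3 are highest in WT, Tagln3, Fxyd6 and Ppfia4 are highest in PRDX1MT, and Stmn2 is highest in DKO clone 5 with 1833 reads.

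Penk, the enkephalin precursor (ENSMUSG00000045573, GRCm38/mm10 chromosome 4, 4133531 to 4138819, minus strand), had 2030 reads in WT, 0 in PRDX1MT, 39 in clone 1 and 17 in clone 5 of DKO. The WT level was thus far above all 3 edited libraries, and the DKO clones lay above PRDX1MT. These counts were 49.3 CPM in WT (47.2 to 51.5), 1.09 CPM in clone 1 (0.778 to 1.495) and 0.617 CPM in clone 5 (0.360 to 0.989), with a DKO mean of 0.856 ± 0.337 CPM (SD, n = 2). Taking 3 counts as the floor for a count of 0, Penk was at least 409-fold lower in PRDX1MT than in WT. Every fold given below as at least a value uses this floor and leaves out the counting error of the other library. The counting interval of this ratio starts lower, at 332-fold. Penk was 45.1-fold lower in clone 1 (32.9 to 63.6) and 79.9-fold lower in clone 5 (49.8 to 137). The clones did not differ beyond counting error (1.77-fold, 0.979 to 3.34). Per kilobase of merged exons Penk was the most abundant of the 7 in WT, at 30.2 CPM per kb, above 91.9% of the 13543 protein-coding genes tested. Of its 1634 exon bases, 233 are shared with A830012C17Rik on the opposite strand, and reads there cannot be assigned to either gene with certainty.

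Of 11 other genes of opioid peptides, their processing and their receptors, 2 had enough reads to be tested and 0 passed by edgeR in DKO against WT or against PRDX1MT, with 1 at an unadjusted p under 0.05 in each. DESeq2, run as an alternative, called 1 of all 186 listed genes against WT (Thy1) and 3 against PRDX1MT (Ptn, Elavl2 and Ppfibp2), so that its count was 0 for every list below that holds none of these. The sister precursors Pdyn and Pomc had 0 and at most 1 read, Pcsk1, a convertase that cuts such precursors, had 0 reads in all libraries, and Pcsk2 had 3 in WT and 0 elsewhere. The opioid receptors Oprm1, Oprd1 and Oprk1 had at most 3 reads in any library. Cpe, the carboxypeptidase that trims peptide precursors, was abundant in all 4 libraries (404, 655, 380 and 548 CPM in WT, PRDX1MT, DKO clone 1 and DKO clone 5). Mme, the membrane peptidase that breaks enkephalins down, stood at 336, 44.5, 155 and 134 CPM in that order. It was lower than WT by the size rule in each edited library, with log2 ratios of -2.91, -1.11 and -1.32, and did not pass the edgeR test in DKO against WT (adjusted p = 0.796, Benjamini-Hochberg). The genes whose pattern over the 4 libraries lay closest to that of Penk, by the distance between centred log2 CPM values, were B4galnt3 (distance 2.68; 272, 1, 10 and 3 reads) and Cnmd, which encodes chondromodulin (distance 2.72; 2116, 8, 229 and 13 reads).

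Ptprz1, the receptor phosphatase (ENSMUSG00000068748, chromosome 6, 22875502 to 23052916, plus strand), had 453 reads in WT and 0 in PRDX1MT and in both DKO clones. It was the only member at 0 reads in every edited library. At 11.01 CPM in WT (10.0 to 12.1), it was at least 91.3-fold lower in PRDX1MT, 131-fold lower in clone 1 and 101-fold lower in clone 5. Of 11548 genes with 100 reads or more in WT, 20 (0.173%) had 0 reads in PRDX1MT, 64 (0.554%) had 0 in clone 1 and 64 (0.554%) in clone 5. All 3 edited libraries were at 0 for 10 (0.0866%). The 2 closest patterns were those of the cell cycle inhibitors Cdkn2a (434 reads in WT, distance 0.0532) and Cdkn2b (482 reads in WT, distance 0.0771), both at 0 in the 3 edited libraries. The Ptprz1 promoter is shown because the gene went unread in all edited libraries, and its 300 bases are dense in CG, the dinucleotide that Dnmt3a and Dnmt3b methylate. The RefSeq window (GRCm38.p6, chr6:22875252-22875551, plus strand) runs from 250 bases before to 50 after the start, with each CG in capitals.
Ptprz1: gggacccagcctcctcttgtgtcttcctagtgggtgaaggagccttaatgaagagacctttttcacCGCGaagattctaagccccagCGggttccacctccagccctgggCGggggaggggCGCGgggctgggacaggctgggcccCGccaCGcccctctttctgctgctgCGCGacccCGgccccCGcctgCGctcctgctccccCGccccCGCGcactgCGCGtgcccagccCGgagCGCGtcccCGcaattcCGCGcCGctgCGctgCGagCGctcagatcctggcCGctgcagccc
It holds 29 CG, more than 87.1% of 32851 such windows, which have a median of 7, and the ratio of observed to expected CG is 0.767. No methylation was measured in these libraries.

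Among 13 ligands, partners and relatives of Ptprz1, 9 were tested and 0 passed by edgeR in DKO against WT or PRDX1MT, with 1 and 2 at an unadjusted p under 0.05. Its ligand Ptn (pleiotrophin) had the most reads of them over the 4 libraries together, at 476 CPM in WT, 164 in PRDX1MT, 2766 in clone 1 and 1024 in clone 5 of DKO. Ptn was thus lower than WT by the size rule in PRDX1MT (log2 ratio -1.54) and higher in both clones (2.54 and 1.10), without passing the edgeR test against WT (adjusted p = 0.872) or against PRDX1MT (adjusted p = 0.340, both Benjamini-Hochberg). DESeq2 called it higher in DKO than in PRDX1MT (adjusted p = 6.91e-05). The other ligand, Mdk (midkine), had 13, 47, 20 and 16 reads in the same order. Ptprg, the closest relative of Ptprz1, had 5096, 3524, 4262 and 3036 reads, with no ratio past the size rule. The matrix ligand Tnc stood at 418, 640, 169 and 229 CPM and was lower than WT by the size rule in clone 1. Contactin-1 (Cntn1), the neuronal surface partner, had 0 reads in all libraries, and L1cam, an adhesion protein of axons that many other cells also make, stood at 156, 93.0, 204 and 97.0 CPM.

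Gria3, the AMPA receptor subunit (ENSMUSG00000001986, chromosome X, 41400854 to 41678601, plus strand), had 1310 reads in WT, 28 in PRDX1MT, 6 in clone 1 and 10 in clone 5 of DKO. The 3 edited libraries all lay far below WT, with DKO clone 1 and clone 5 below PRDX1MT. The levels were 31.8 CPM in WT (30.1 to 33.6), 1.13 CPM in PRDX1MT (0.748 to 1.63), 0.168 CPM in clone 1 (0.0617 to 0.366) and 0.363 CPM in clone 5 (0.174 to 0.668). Against WT, Gria3 was 28.3-fold lower in PRDX1MT (19.5 to 42.7) and 189-fold lower in clone 1 (86.7 to 517). In clone 5 it was lower by a factor of 87.7 (47.5 to 183). The clones did not differ beyond counting error (2.16-fold, 0.711 to 7.23). An 85-base stretch of its 9859 exon bases is shared with the miRNA gene Gm22413. Its closest patterns were those of Phactr2 (distance 0.604; 511, 5, 0 and 2 reads), a regulator of actin, and of Aff2 (distance 0.872; 194, 2, 0 and 0 reads). Like Penk and Ptprz1, Gria3 was lower than WT by the size rule in all 3 edited libraries, as were 2.15% of the 12323 genes with enough reads in each pair.

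Most other ionotropic glutamate receptor genes were hardly read. Of 17 listed, 4 had 0 reads in all libraries, 6 were tested and 0 passed by edgeR in either DKO comparison, with 1 at an unadjusted p under 0.05 in each. The AMPA subunit Gria2, which sets the calcium permeability of the receptor, had 0 reads everywhere, and Gria1 had at most 6. Gria4 was the only other AMPA subunit with more, at 61 reads in WT, 4 in PRDX1MT and 0 in both clones (adjusted p = 0.163 in DKO against WT, edgeR with Benjamini-Hochberg adjustment). The most read members were the kainate subunit Grik5 (229, 103, 368 and 100 reads in WT, PRDX1MT, DKO clone 1 and DKO clone 5) and the NMDA subunits Grin2d (161, 202, 79 and 140) and Grin3a (101, 101, 43 and 84). Grin2d was higher than WT by the size rule in PRDX1MT (log2 ratio 1.04). The NMDA subunit Grin3b (31, 68, 73 and 83 reads) was higher than WT by that rule in both clones (log2 ratios 1.38 and 1.92). In PRDX1MT it had too few reads for the rule (log2 ratio 1.78). Of 23 AMPA receptor partners 12 were tested and 0 passed by edgeR in either comparison, with 0 at an unadjusted p under 0.05 against WT and 2 against PRDX1MT. The most read were Dlg1, a scaffold also found outside synapses (93.0, 106, 164 and 182 CPM), Nptxr, the neuronal pentraxin receptor (56.4, 80.3, 86.0 and 119 CPM), and Nsf, a general membrane fusion ATPase (78.9, 61.8, 64.0 and 65.2 CPM). Grip2, which binds AMPA receptor tails, was higher than WT by the size rule in PRDX1MT (log2 ratio 2.42) and in clone 1 (1.09). Nptxr was higher than WT by that rule in clone 5 (log2 ratio 1.08).

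Stmn2, the microtubule regulator of axons (ENSMUSG00000027500, chromosome 3, 8509360 to 8561606, plus strand), had 487 reads in WT, 0 in PRDX1MT, 306 in clone 1 and 1833 in clone 5 of DKO. Clone 5 was the highest and PRDX1MT the lowest, and WT lay between the clones. The levels were 11.8 CPM in WT (10.8 to 12.9), 8.58 CPM in clone 1 (7.65 to 9.60) and 66.6 CPM in clone 5 (63.6 to 69.7). Stmn2 was at least 98.1-fold lower in PRDX1MT than in WT. In clone 1 it was 1.38-fold lower than in WT (1.19 to 1.60), a difference outside counting error but under the size rule, and in clone 5 it was 5.625-fold higher (5.09 to 6.23). Between the clones it differed 7.76-fold (6.87 to 8.79). It was the only member past the size rule there (7.63% of all genes were higher and 10.7% lower in clone 5). Ppfia4, with 59 reads in clone 1 and 0 in clone 5, had too few reads for the rule. The DKO mean of Stmn2, 37.6 ± 41.0 CPM (SD, n = 2), therefore stands for neither clone. Pooled over the clones, the log2 ratio of Stmn2 to WT was 1.51, and with clone 1 alone it was -0.46. Compared with PRDX1MT, Stmn2 was higher by the size rule in both clones, at least 71.15-fold in clone 1 and at least 552-fold in clone 5. It was the 1 member higher there by that rule (8.14% and 5.81% of all genes were). Penk, with 39 and 17 reads in clones 1 and 5 against 0 in PRDX1MT, had too few reads for the rule.

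Among 12 other stathmins and growth cone proteins, 10 were tested and 0 passed by edgeR in either comparison, with 0 at an unadjusted p under 0.05 against WT and 1 against PRDX1MT. Stmn1, the stathmin of dividing cells, stood at 42.4, 55.2, 46.6 and 122 CPM in WT, PRDX1MT, DKO clone 1 and DKO clone 5. Like Stmn2 it was highest in clone 5, where it passed the size rule against WT (log2 ratio 1.53), but it was not lower in PRDX1MT. Stmn3 had 11 to 22 reads per library, and Stmn4 had 4, 24, 13 and 0. Gap43, a growth cone protein often read together with Stmn2 in neurons, had 17, 11, 2 and 4 reads. The most read of the list were Dpysl2 (527, 754, 597 and 684.5 CPM), Dpysl3 (183.5, 206.9, 75.6 and 274.5 CPM) and Basp1 (70.9, 166, 82.7 and 124 CPM), of which Basp1 was higher than WT by the size rule in PRDX1MT and Dpysl3 lower in clone 1. Among the neuronal markers, the RNA-binding protein gene Elavl2 took the same order of libraries as Stmn2, with 242, 9, 73 and 339 reads. Elavl2 was singled out after its values were seen. The closest patterns over all genes were Casd1 (distance 2.72; 560, 0, 290 and 214 reads), a sialic acid acetyltransferase, and Pik3r5 (distance 3.55; 84, 0, 43 and 55 reads).

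**Figure D3:**
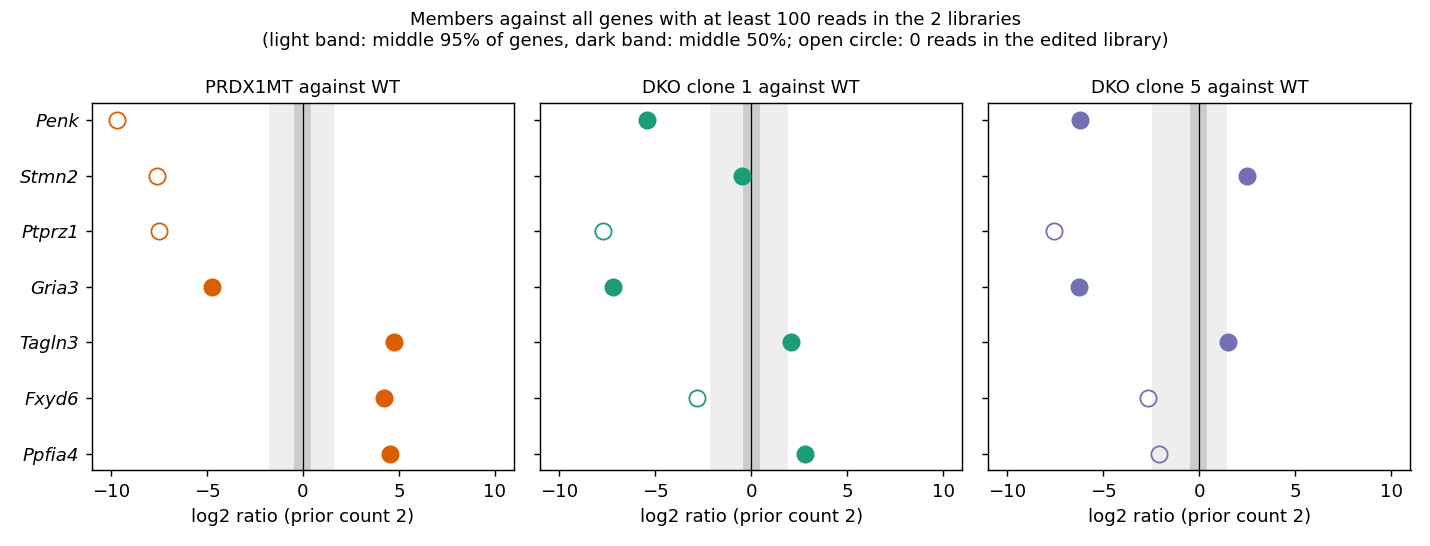
Log2 ratio (prior count 2) of each of the 7 genes in each edited library against WT; bands show the middle 95% (light) and 50% (dark) of all genes with at least 100 reads in the 2 libraries, and open circles mark 0 reads in the edited library. Stmn2 has ratios of -7.62, -0.46 and 2.49 in PRDX1MT, DKO clone 1 and DKO clone 5, whereas Ptprz1 lies between -7.51 and -7.73 in all 3.

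Tagln3, the neuronal transgelin (ENSMUSG00000022658, chromosome 16, 45711230 to 45724608, minus strand), had 7 reads in WT, 151 in PRDX1MT, 31 in clone 1 and 16 in clone 5 of DKO. PRDX1MT stood above the other 3 libraries. The levels were 0.170 CPM in WT (0.0684 to 0.3505), 6.07 CPM in PRDX1MT (5.14 to 7.12), 0.869 CPM in clone 1 (0.591 to 1.23) and 0.581 CPM in clone 5 (0.332 to 0.944). Tagln3 was 35.7-fold higher in PRDX1MT than in WT (16.9 to 90.3), and also 5.11-fold higher in clone 1 (2.21 to 13.75) and 3.42-fold higher in clone 5 (1.33 to 9.82), the last 2 on too few reads for the size rule. The clones did not differ beyond counting error (1.496-fold, 0.794 to 2.93). The muscle and fibroblast transgelins and calponins Tagln, Tagln2, Cnn1, Cnn2 and Cnn3 were all tested, 0 of the 5 passed by edgeR in either comparison, with 0 at an unadjusted p under 0.05, and of the 3 with enough reads for the size rule 0 passed it in any edited library. The abundant ones were Cnn2 (366, 478, 256 and 345 CPM), Cnn3 (267, 207, 291 and 212 CPM) and Tagln2 (187, 232, 128 and 252 CPM). Tagln, a marker of smooth muscle, had 31 to 44 reads per library, with a log2 ratio of 1.01 in PRDX1MT on too few reads for the size rule. Whether Tagln3 differed from its relatives was not tested.

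Fxyd6, the sodium pump modulator (ENSMUSG00000066705, chromosome 9, 45370185 to 45396159, plus strand), had 13 reads in WT, 176 in PRDX1MT and 0 in both DKO clones. PRDX1MT was again the highest, and the clones were the lowest. The WT level was 0.316 CPM (0.168 to 0.540) and the PRDX1MT level 7.075 CPM (6.07 to 8.20), a 22.4-fold difference (12.8 to 42.9). Against PRDX1MT the gene was at least 84.1-fold lower in clone 1 and at least 64.9-fold lower in clone 5. Against WT, with its 13 reads and the same floor, the gene was only 3.755-fold lower in clone 1 and 2.90-fold lower in clone 5. The counting intervals of these 2 ratios start at 2.64-fold and 2.04-fold. Of 13 related FXYD proteins and sodium pump subunits, 10 were tested and 0 passed by edgeR in either comparison, with 2 at an unadjusted p under 0.05 in DKO against WT and 0 against PRDX1MT. With no ratio past the size rule, the structural subunit Atp1b3 stood at 81.8, 84.9, 73.4 and 96.2 CPM. Atp1b1 had 2025, 1443, 2753 and 397 reads and was lower than WT by the size rule in clone 5. Fxyd5 stood at 36.5, 72.0, 45.7 and 82.2 CPM and was higher than WT by the size rule in clone 5 (log2 ratio 1.17). Fxyd1 (phospholemman), the modulator of the pump in heart and muscle, had 97, 151, 932 and 178 reads, higher than WT by the size rule in all 3 edited libraries, but did not pass by edgeR (adjusted p = 0.666, Benjamini-Hochberg).

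Ppfia4, the liprin (ENSMUSG00000026458, chromosome 1, 134296783 to 134332928, minus strand), had 8 reads in WT, 144 in PRDX1MT, 59 in clone 1 and 0 in clone 5 of DKO. PRDX1MT was the highest, clone 1 stood between it and WT, and clone 5 was unread. The levels were 0.194 CPM in WT (0.0839 to 0.383), 5.79 CPM in PRDX1MT (4.88 to 6.815) and 1.65 CPM in clone 1 (1.26 to 2.13). This was 29.8-fold higher in PRDX1MT than in WT (14.7 to 70.3) and 8.51-fold higher in clone 1 than in WT (4.05 to 20.6). Clone 5 was at least 15.2-fold lower than clone 1, so that the pooled log2 ratio of the clones to WT, 2.06, turned to -2.12 with clone 5 alone. Among 18 other liprins and active zone proteins, 11 were tested and 0 passed by edgeR in either comparison, with 1 at an unadjusted p under 0.05 against WT and 2 against PRDX1MT. DESeq2 called Ppfibp2, a liprin-binding protein with 50, 0, 168 and 26 reads, higher in DKO than in PRDX1MT (adjusted p = 0.0279, Benjamini-Hochberg). Ppfibp2 was higher than WT by the size rule in clone 1 (log2 ratio 1.91). Of the other liprins, the widely expressed Ppfia1 had 78.8, 112, 124 and 88.3 CPM, Ppfia2 had at most 3 reads, and the neuronal Ppfia3 had 161, 231, 74 and 49 reads. Ppfia3 thus took the order PRDX1MT above WT above the clones, and passed the size rule as higher in PRDX1MT (log2 ratio 1.23) and lower in clone 5 (-1.11). Bsn (bassoon), an organiser of the active zone, had 61, 103, 76 and 15 reads, and the priming factor Unc13a 137, 125, 153 and 91. Bsn was higher than WT by the size rule in PRDX1MT (log2 ratio 1.445). The most read of the list were the liprin-binding receptor phosphatases Ptprs (537, 583, 596 and 573 CPM) and Ptprf (211, 325, 448 and 872 CPM) and the scaffold Ppfibp1 (252, 256, 255 and 297 CPM). Ptprf was higher than WT by the size rule in both clones and did not pass by edgeR (adjusted p = 0.854, Benjamini-Hochberg).

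Tagln3, Fxyd6 and Ppfia4 shared the placing of PRDX1MT above WT and above both clones by the size rule, as 1.79% of 11823 genes with enough reads in each pair did. In DKO against PRDX1MT, 3 members were lower in clone 1 and 3 in clone 5, where 6.84% and 8.00% of all genes with enough reads were. Penk, Ptprz1 and Gria3 had too few reads for the rule there. These comparisons share their libraries, and the members were chosen for such values. The closest patterns to Tagln3 were Gm13889 (distance 0.402; 9, 132, 26 and 16 reads) and Hey1, a transcriptional repressor downstream of Notch (distance 0.496; 94, 1255, 415 and 217 reads). Closest to Fxyd6 were Lmo1 (distance 1.34; 37, 130, 0 and 0 reads) and Slc1a6, a neuronal glutamate transporter (distance 1.38; 43, 150, 0 and 1 reads). Closest to Ppfia4 were the monoamine oxidase Maob (distance 1.38; 17, 77, 62 and 1 reads) and the collagen-binding integrin Itga11 (distance 1.91; 610, 2362, 572 and 38 reads).

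Their promoters are shown because the genes were all read mainly in PRDX1MT. The windows come from RefSeq (GRCm38.p6), from 250 bases before to 50 after a start, with each CG in capitals. That of Tagln3 is chr16:45724482-45724781 (minus strand), that of Fxyd6 is chr9:45369935-45370234 (plus strand), and Ppfia4 has an upstream start (chr1:134344667-134344966, minus strand) and a start at the end of the GENCODE gene (chr1:134332879-134333178, minus strand).
Tagln3: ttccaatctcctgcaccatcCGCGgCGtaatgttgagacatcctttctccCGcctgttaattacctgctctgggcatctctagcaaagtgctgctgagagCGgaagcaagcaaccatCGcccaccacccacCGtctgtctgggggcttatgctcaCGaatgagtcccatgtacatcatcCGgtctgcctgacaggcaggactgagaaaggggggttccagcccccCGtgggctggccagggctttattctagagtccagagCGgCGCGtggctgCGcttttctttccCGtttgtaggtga
Fxyd6: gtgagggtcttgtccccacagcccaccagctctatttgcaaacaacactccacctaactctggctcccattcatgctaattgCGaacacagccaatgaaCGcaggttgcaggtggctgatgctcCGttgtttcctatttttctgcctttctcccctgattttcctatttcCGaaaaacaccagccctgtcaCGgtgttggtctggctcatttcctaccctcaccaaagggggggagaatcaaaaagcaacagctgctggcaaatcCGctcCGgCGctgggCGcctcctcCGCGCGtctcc
Ppfia4, upstream start: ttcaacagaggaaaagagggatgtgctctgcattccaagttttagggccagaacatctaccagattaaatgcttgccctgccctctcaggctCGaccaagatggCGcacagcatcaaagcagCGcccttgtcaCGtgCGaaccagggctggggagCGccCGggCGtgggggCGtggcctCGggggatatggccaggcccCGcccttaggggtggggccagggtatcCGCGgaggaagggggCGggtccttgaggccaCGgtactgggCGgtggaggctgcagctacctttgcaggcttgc
Ppfia4, GENCODE start: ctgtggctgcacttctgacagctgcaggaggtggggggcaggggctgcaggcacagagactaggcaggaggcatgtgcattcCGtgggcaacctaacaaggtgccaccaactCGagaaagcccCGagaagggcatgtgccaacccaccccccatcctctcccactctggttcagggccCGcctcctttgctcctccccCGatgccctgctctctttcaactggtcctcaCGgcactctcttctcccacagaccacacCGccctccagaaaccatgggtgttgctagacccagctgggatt
They hold 15, 12, 16 and 7 CG in that order, against 29 for Ptprz1 and a median of 7 over all windows. The ratio of observed to expected CG was 0.611, 0.568, 0.544 and 0.252. Of 6 motifs searched on both strands, GGGCGG, the GC box, was the only 1 found in these 4 windows and that of Ptprz1. It occurred in the Ptprz1 window at positions -143 and -45 from the start and in both Ppfia4 windows, with 3 matches at the upstream start and 1 at the other, and it is held by 35.7% of all windows. The TATA box TATAAA (13.6% of all windows), the cyclic AMP elements TGACGTCA (1.79%) and TGCGTCA (2.12%), and CAGCACC (7.14%) and GGACAGC (6.56%), short stretches of the site bound by Rest, had no match in these windows. Windows were matched for 4 of the 7 genes and not for Penk, Gria3 and Stmn2.

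The genes next to the members were hardly read or, in PRDX1MT against WT, had log2 ratios smaller in size than the member's. The nearest protein-coding genes on both sides of Penk, Ptprz1 and Gria3 were either hardly read (Sdr16c6, Aass and Cypt14, at most 5 reads in a library) or within a log2 ratio of about 1 of WT in the edited libraries. Impad1, beyond Penk, had 289.4, 188.5, 178.4 and 247.6 CPM, Fam3c, before Ptprz1, had 126, 62.4, 121 and 89.7 CPM, and Thoc2, beyond Gria3, had 87.2, 49.96, 64.7 and 48.2 CPM in WT, PRDX1MT, DKO clone 1 and DKO clone 5. Impad1, Fam3c and Thoc2 lie 623664, 519258 and 116389 bases from their members. Each had a lower CPM than WT in every edited library, by log2 ratios from -0.05 (Fam3c in clone 1) to -1.01 (Fam3c in PRDX1MT). Whether these smaller differences go with those of the members was not tested. Of these, Fam3c just passed the size rule as lower in PRDX1MT (log2 ratio -1.01). Next to Stmn2, 101752 bases away, Hey1 took the opposite course to it in PRDX1MT, with 2.28 CPM in WT against 50.45 CPM in PRDX1MT (log2 ratio 4.43), 11.6 CPM in clone 1 and 7.88 CPM in clone 5. Il7, on its other side, had at most 6 reads. Both neighbours of Tagln3 had a higher CPM in PRDX1MT than in WT. Abhd10, 5116 bases away, stood at 9.11 CPM in WT and at 23.7 in PRDX1MT (log2 ratio 1.37), and Tmprss7, 17571 bases away, had 1 and 28 reads, too few for the size rule. Fxyd2, only 3509 bases beyond Fxyd6 on the same strand and another sodium pump modulator, had at most 3 reads in any library, and Tmprss13 on the other side had 0. Myog, the muscle determination gene 4234 bases from the end of Ppfia4, had at most 1 read, and Tmem183a on the other side had log2 ratios of 0.22, -0.32 and 0.61. Of the flanking genes tested by edgeR, Hey1 had the lowest adjusted p, 0.378 in DKO against WT and 0.205 against PRDX1MT (Benjamini-Hochberg).

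**Figure D4:**
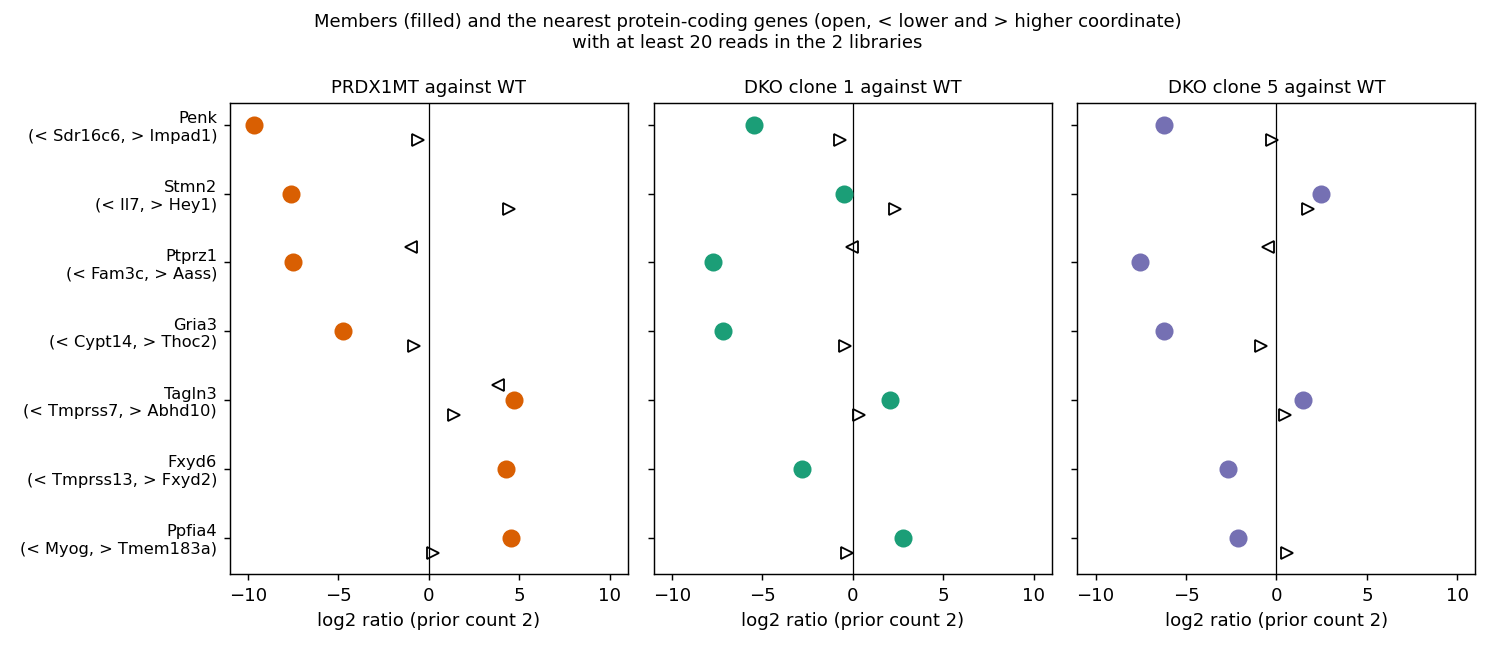
Log2 ratio (prior count 2) against WT of each of the 7 genes (filled circles) and of its nearest protein-coding genes with at least 20 reads in the 2 libraries (open triangles, pointing left for the lower and right for the higher coordinate). In PRDX1MT, Hey1 (4.43) stands on the opposite side of 0 from Stmn2 (-7.62), and both neighbours of Tagln3 stand on its side.

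Over the 8 lists of relatives and partners together, 112 genes in all, few genes were called between DKO and the other lines. Of these, 65 were tested by edgeR, and 0 passed in DKO against WT (6 at an unadjusted p under 0.05) or against PRDX1MT (9 at an unadjusted p under 0.05). Over all 19446 genes tested, 988 and 912 had an unadjusted p under 0.05 in these comparisons. DESeq2 called 0 of the relatives against WT and Ptn and Ppfibp2 against PRDX1MT. Over all genes 0.0154% were called higher and 0.453% lower against WT, and 0.0103% higher and 0.195% lower against PRDX1MT. The median fitted log2 ratio of the 65 was 0.11 against WT and -0.24 against PRDX1MT, beside 0.03 and 0.04 over all genes tested. By the size rule, 8 of the 45 relatives with enough reads were higher and 2 lower in PRDX1MT than in WT. In clone 1 the counts were 8 and 4 of 49, and in clone 5 they were 8 and 3 of 44. Together 22.2%, 24.5% and 25% of the relatives passed the size rule in PRDX1MT, clone 1 and clone 5, beside 14.8%, 16.0% and 14.3% of all genes.

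**Figure D5:**
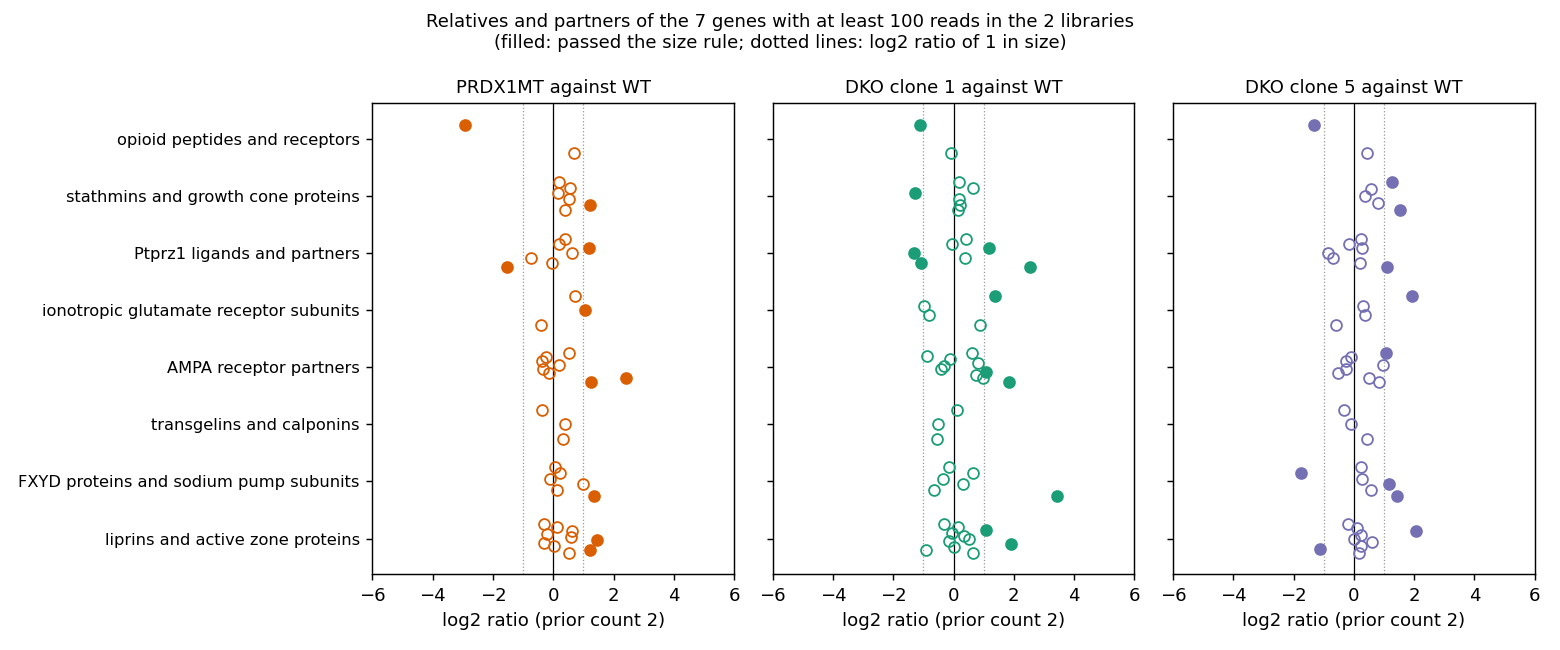
Log2 ratio (prior count 2) against WT of the relatives and partners of the 7 genes, by list, in each edited library, for genes with at least 100 reads in the 2 libraries; filled points passed the size rule. Most points lie within 1 of 0, and the lowest in PRDX1MT is Mme at -2.91.

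Genes known to keep neuronal genes silent in other cells were all read in every library, with no ratio to WT past the size rule. Rest, which binds and represses many neuronal promoters, had 104, 97.2, 113 and 86.5 CPM in WT, PRDX1MT, DKO clone 1 and DKO clone 5. All 14 listed repressors and cofactors, among them Rcor1, Hdac1, Hdac2, Kdm1a, Ehmt2 and Ptbp1, were tested. Of these, 0 passed by edgeR in either comparison, with 0 at an unadjusted p under 0.05, and 0 passed the size rule in any edited library. By edgeR 0.468% and 0.206% of all genes tested passed against WT and PRDX1MT, so that 0 of 14 says little. The size rule was passed by 14.8%, 16.0% and 14.3% of all genes with enough reads in PRDX1MT, clone 1 and clone 5. The summed level of the 14 was 1717 to 1837 CPM. The most read were Ctdsp2 (419, 424, 365 and 418 CPM), Ptbp1 (296, 236, 242 and 279 CPM) and Ehmt2 (202, 242.9, 240.4 and 245.5 CPM). Read counts do not show the activity of these proteins. Among the marker lists 1 gene, Thy1, passed by edgeR, lower in DKO than in WT (log2 ratio -4.76, SE 0.63, adjusted p = 0.0321, Benjamini-Hochberg), and it was lower in PRDX1MT as well, where it had 22 reads. The call was lost with a filter of 1 CPM in 2 libraries. It was also lost without either DKO clone in fits that joined WT with PRDX1MT, which put its 1192 and 22 reads in 1 group, so that the part of the missing clone cannot be told apart. Of the neuronal markers, Map2 was higher than WT by the size rule in PRDX1MT (204 CPM against 89.3), and Tubb3 was lower in clone 1 (log2 ratio -1.64). Elavl2 was lower than WT by that rule in PRDX1MT and clone 1 and higher in clone 5. Of the glial markers, S100b was lower in PRDX1MT (log2 ratio -1.52) and higher in clone 1 (1.49), and Slc1a3 was lower in PRDX1MT (-1.25) and clone 5 (-1.81).

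Per kilobase of merged exons, which allows levels of different genes to be set side by side, the order of the 7 genes turned over between libraries. In WT Penk led with 30.2 CPM per kb, followed by Gria3 (3.23), Stmn2 (2.11) and Ptprz1 (0.773), and Tagln3, Fxyd6 and Ppfia4 were last, at 0.137, 0.0769 and 0.0296 CPM per kb, the highest of them above 8.45% of protein-coding genes. In PRDX1MT the order was Tagln3 (4.895), Fxyd6 (1.72), Ppfia4 (0.881) and Gria3 (0.114), with the rest at 0. Stmn2 led in both DKO clones, with 1.53 CPM per kb in clone 1 and 11.9 in clone 5, the latter above 74.8% of protein-coding genes. In each clone Tagln3 and then Penk came next, at 0.701 and 0.669 CPM per kb in clone 1 and 0.469 and 0.378 in clone 5, and these 2 did not stand apart by more than their counting intervals. Beside Penk in WT and Stmn2 in clone 5, only Tagln3 in PRDX1MT, above 52.5%, reached the middle of the protein-coding genes.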

How the data were processed

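RNA was sequenced from 4 libraries of mouse C3H10T1/2 cells. The values are raw counts of reads per gene as the authors deposited them, in whole numbers. The submitters' processing notes name the aligner STAR 2.6.1d and the build mm10. For the counting program, annotation and strand setting, details were not given in the sources used here. Library totals ran from 27570136 to 37685798 counts. Of 54532 identifiers, 54495 were matched to GENCODE M21 for symbols and positions.

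The counts were tested with edgeR 4.0.16 (R 4.3.3; quasi-likelihood test, filterByExpr by group, TMM scaling). The p-values were adjusted by Benjamini-Hochberg over the 19446 genes tested, with a threshold of 0.05. The fit held all 3 groups and took its spread from the 2 DKO clones, which leave 1 residual degree of freedom, so that WT and PRDX1MT are assumed to vary like them. Single libraries were compared by log2 ratios (prior count 2) with 95% counting intervals. Alternatives were DESeq2 1.42.0, RLE and total-count scaling, other filters on low counts, a prior count of 0.5, only the groups compared, and leaving out each clone (with WT and PRDX1MT joined in the edgeR fits). The fit was tested on simulated data.

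The members and gene lists were chosen with earlier results of these data known. Named by rule were all members, the listed genes that passed and up to 3 with the most reads per list, the nearest protein-coding gene on each side, and the 2 genes of closest pattern. A gene that this rule names is not reported here. Other listed genes were named after their values were seen.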

Additional observations from a re-analysis of the deposited data

How the results depend on the processing

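No paired analysis was possible because the groups compared share fewer than 2 replicate numbers. The size rule gave the same counts of members in each edited library under RLE scaling, total-count scaling and a prior count of 0.5. The pooled DKO ratio to WT changed sign for Stmn2 without DKO replicate 5 (-0.46, and 2.49 without replicate 1, against 1.51 on the log2 scale) and for Ppfia4 without DKO replicate 1 (-2.12, and 2.79 without replicate 5, against 2.06), because the clones differ. Of the listed genes, edgeR called 1 in DKO against WT, as did DESeq2, both other scalings and the fit of only the groups compared. With no filter beyond 1 read it called 3 (Gria4, Thy1 and Fxyd1), and with at least 1 CPM in 2 libraries 0, where it called 0 of all genes and 4 listed genes had an unadjusted p under 0.05. Without either clone, with WT and PRDX1MT joined, it called 0 to 0, with 13 to 14 at an unadjusted p under 0.05. In DKO against PRDX1MT, edgeR called 0 (13 at an unadjusted p under 0.05), DESeq2 3 and the fit with no filter 5, all higher in DKO, and the cause was not tested. Over all genes, edgeR called 91 against WT and 40 against PRDX1MT, DESeq2 262 and 215, and the fit with no filter 535 and 404. RLE scaling gave 76 and 13, total counts 76 and 7, and only the groups compared 108 and 11. Against WT and PRDX1MT joined, edgeR called 21 of all genes without clone 1 and 92 without clone 5. These fits change both the clone and the reference, and the effects of the 2 changes cannot be told apart. With 1 library each of WT and PRDX1MT, a difference between lines and one between cultures cannot be told apart.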
